A study of Homo sapiens with 16 samples.

Results

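Of the 25370 genes of the count table, 10 receptor chains were taken by symbol, and all 10 are described here. They are IL6ST, LIFR, OSMR and IL6R of the interleukin 6 family, IL7R, IL4R, the type I interferon receptor chains IFNAR1 and IFNAR2, and the interferon gamma receptor chains IFNGR1 and IFNGR2. The rule that picked them is a list of names and uses no measured value, although earlier results of these data were known when the list was made. All 10 passed the filter on low counts.

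Cytokine receptors of these classes have no enzyme of their own. A ligand brings a pair or a larger set of chains together, the Janus kinases bound to the chains' tails become active, and STAT factors docked there are phosphorylated and move to the nucleus. A chain that binds the ligand and a chain that carries the signal are often different genes, and 1 shared chain can serve many ligands, so the amount of each chain helps set which cytokines a cell can answer. In the brain, these receptors are known for passing interleukin and interferon signals to glial cells.

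RNA was sequenced from HMC3, a human cell line of microglial origin, after 24 h of treatment, with 2 libraries for each of 8 groups. The groups were vehicle, 0.1 nM estradiol (E2) alone, ketamine alone, (2S,6S)-HNK alone, (2R,6R)-HNK alone, and each of these 3 drugs together with 0.1 nM E2. Drugs were always at 400 nM. HNK is hydroxynorketamine, a ketamine metabolite that has lost a methyl group and gained a hydroxyl group, and the 2 HNK compounds are mirror images of each other. Every group, vehicle included, came from cells kept in charcoal-stripped serum, then without serum, and treated in medium free of serum and phenol red. All groups are 1 cell line, and the labels do not say whether the libraries of a group came from separate cultures, so p-values measure only the spread between these libraries.

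The libraries held 55300614 to 81646165 counts, and replicate libraries varied 2.67 to 4.34 times as much as counting noise alone would give in variance. Low counts were mostly even, and if both reads of a pair were counted this ratio is too large. Of a list of 12 microglia and macrophage markers, 10 were under 1 CPM (counts scaled to a library of 1e+06) on average, among them AIF1, ITGAM, PTPRC, TMEM119, P2RY12 and CX3CR1. Their summed level, mostly CD68, was 20.6 to 23.6 CPM in vehicle and 22.3 to 27.8 in treated cells. Of 8 fibroblast and pericyte markers, FN1 and COL1A1 averaged 14700 and 4550 CPM, and THY1, PDGFRB and COL1A2 428, 264 and 191, while COL3A1, LUM and DCN were below 1 CPM. In every treatment, fold changes followed exon GC content. Across 15349 genes, which are not independent replicates, Spearman's rho was lowest with E2+(2S,6S)-HNK (0.444) and highest with E2+ketamine (0.771). Most changes below are therefore also given after a correction of every library for exon GC content and length (called the correction below). The part of GC content in each change was not tested beyond that. Shares of all genes called are given before the correction only.

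The promoters of 4 chains are shown because they belong to the largest fall (IL7R), to the chain that differed most between the HNK compounds in the absence of E2 (OSMR), and to neighbours that moved in opposite directions (IFNAR1 and IFNGR2). Each is the RefSeq window on GRCh38.p14 from 250 bases before to 50 bases after an annotated start, read along the strand of the gene, which is plus for all 4. An entry was matched for 9 of the 10 chains, all but IFNAR2. The windows lie at chr5:35856641-35856940 (IL7R), chr5:38845762-38846061 (OSMR), chr21:33324720-33325019 (IFNAR1) and chr21:33403163-33403462 (IFNGR2). IFNAR1 has a second window, not shown. Capitals mark matches, on either strand, to STAT (TTCNNNGAA), AP-1 (TGANTCA), SP1 (GGGCGG), the TATA box (TATAAA), ETS factors (CCGGAA) and the box named CCAAT, and matches that overlap run together.
IL7R: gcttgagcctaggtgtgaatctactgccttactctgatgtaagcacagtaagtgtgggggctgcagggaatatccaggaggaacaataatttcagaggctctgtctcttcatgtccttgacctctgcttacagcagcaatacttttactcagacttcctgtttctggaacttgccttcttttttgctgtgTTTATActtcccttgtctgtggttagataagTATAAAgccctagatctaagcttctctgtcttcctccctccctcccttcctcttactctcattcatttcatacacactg
OSMR: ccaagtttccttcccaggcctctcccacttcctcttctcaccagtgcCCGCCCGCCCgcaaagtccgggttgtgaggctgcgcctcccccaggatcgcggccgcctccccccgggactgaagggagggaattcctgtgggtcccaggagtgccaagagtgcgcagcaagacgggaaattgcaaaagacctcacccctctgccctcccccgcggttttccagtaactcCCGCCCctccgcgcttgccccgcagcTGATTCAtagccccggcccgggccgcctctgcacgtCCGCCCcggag
IFNAR1: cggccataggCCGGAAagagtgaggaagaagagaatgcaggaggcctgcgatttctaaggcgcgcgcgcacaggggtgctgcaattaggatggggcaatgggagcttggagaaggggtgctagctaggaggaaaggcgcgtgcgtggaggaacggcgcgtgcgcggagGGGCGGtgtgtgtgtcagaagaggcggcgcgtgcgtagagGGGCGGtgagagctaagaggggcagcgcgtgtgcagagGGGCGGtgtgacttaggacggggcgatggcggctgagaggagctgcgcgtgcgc
IFNGR2: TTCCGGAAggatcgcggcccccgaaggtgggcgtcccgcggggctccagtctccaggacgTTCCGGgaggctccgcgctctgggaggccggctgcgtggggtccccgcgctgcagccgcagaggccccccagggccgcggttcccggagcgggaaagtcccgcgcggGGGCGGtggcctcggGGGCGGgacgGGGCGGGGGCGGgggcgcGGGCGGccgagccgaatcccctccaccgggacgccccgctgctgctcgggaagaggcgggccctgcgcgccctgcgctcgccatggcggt

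The IL7R window held no CpG and 44.3% GC, whereas the median promoter of the 35116 in the table held 14 CpG and 58.7% GC. It carried TATAAA at position -29 from the start, letters found in 11.5% of promoters, and the same letters on the other strand at -60. The OSMR window held 23 CpG and the AP-1 letters at position 3 after the start. AP-1 letters occurred in 7.71% of promoters. The IFNAR1 and IFNGR2 windows held 30 and 44 CpG. Both carried SP1 letters, which 45% of promoters have, and ETS letters, which 17.2% have. STAT letters, found in 7.66% of promoters, had no match in the 4 windows shown, whereas 2 of the 3 LIFR windows, not shown, held them, at position -165 in 1 and -182 in the other. Neither a match nor its absence says whether a factor binds there.

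Per kilobase of exon, OSMR was the most abundant chain in vehicle cells and IL6R the least. The mean level in vehicle was 20.4 CPM per kilobase for OSMR, 11.4 for both IFNGR2 and IL6ST, 4.32 for IL7R, 4.17 for IFNGR1, 3.64 for IFNAR1, 2.45 for IL4R, 2.16 for LIFR, 1.29 for IFNAR2 and 0.45 for IL6R. The vehicle libraries of IFNGR2 (11 and 11.9) and of IL6ST (11.2 and 11.5) overlapped on this scale, while those of IL7R (4.38 and 4.27) and IFNGR1 (4.26 and 4.08) came within 0.01 of each other. These levels use all annotated exons of a gene, so rare long transcripts lower them.

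**Figure D1:**
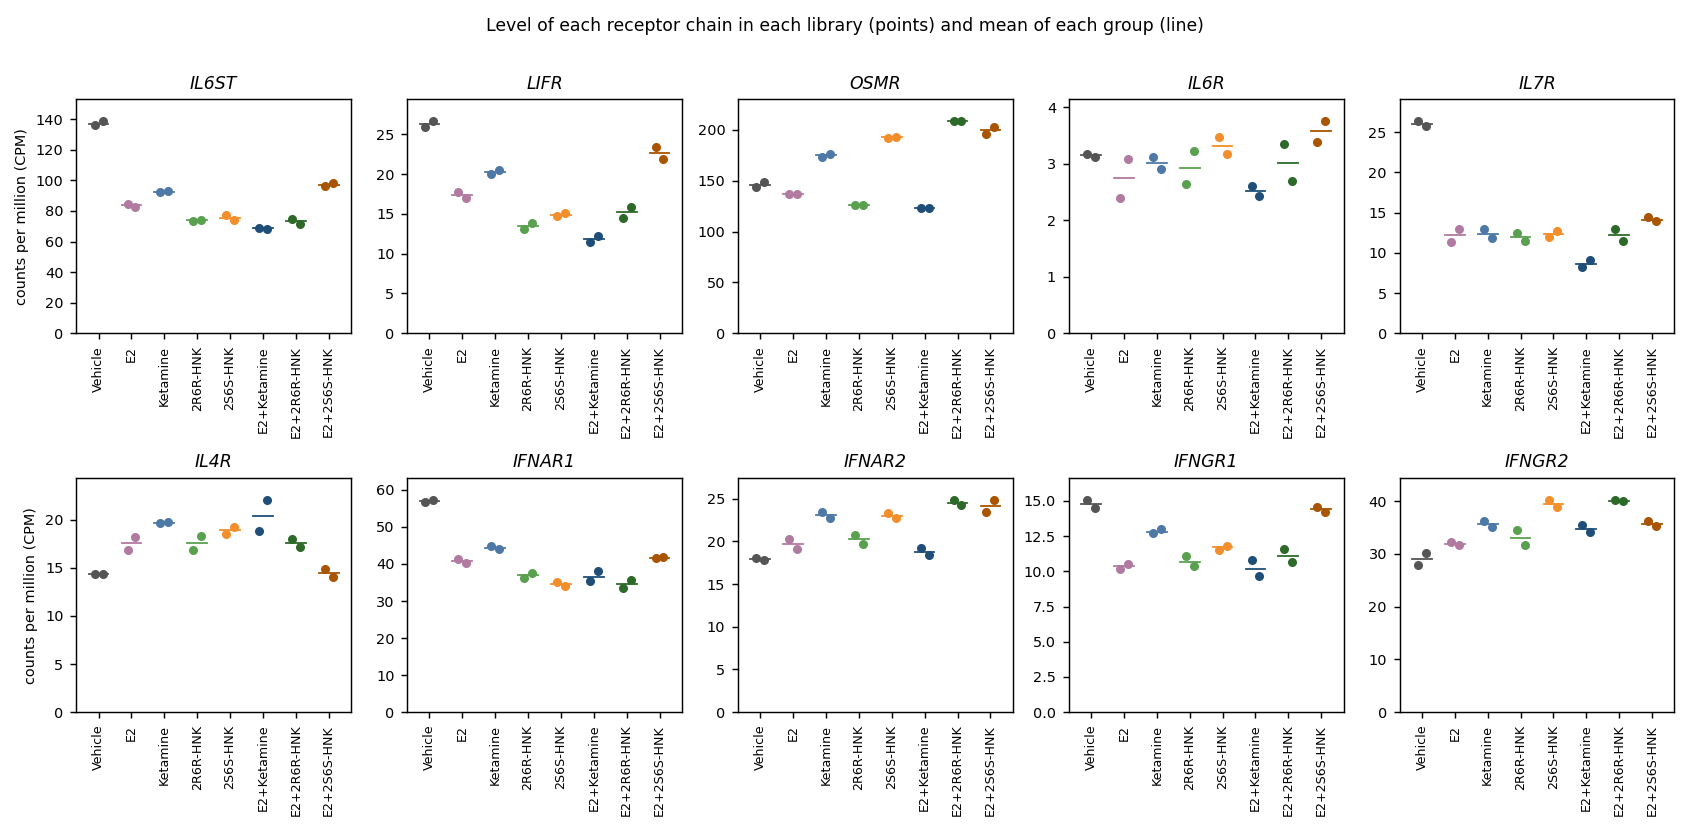
CPM of each chain (vertical axes from 0, each panel with its own scale) in the 2 libraries of each of the 8 groups (points) and the group mean (line). IL7R fell from about 26 CPM in vehicle to 8.19 to 14.4 in treated libraries, while IFNAR2 and IFNGR2 lay above vehicle in all 14 treated libraries. The share of all genes that lay apart from vehicle in this way was not computed.

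The first question was whether E2, ketamine, the HNK compounds or their combinations changed the receptor chains relative to vehicle. IL7R, IL6ST, LIFR and IFNAR1 fell in all 7 treatments, and IFNGR2 rose in all 7. IFNGR1 fell in 6, IL4R rose in 6 and IFNAR2 rose in 5. OSMR rose in 4 and fell in 3, and IL6R passed the test in none. All 7 comparisons share the same 2 vehicle libraries, so a direction seen in all 7 is not 7 separate observations. A gene was called at a Benjamini-Hochberg adjusted p under 0.05 in edgeR's quasi-likelihood test, with p-values adjusted over 16004 genes.

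These calls were made against a background in which about 2 in 3 of all genes tested were called. With E2, 2 chains rose and 6 fell, where 29.9% of all genes rose and 32.7% fell. With ketamine, 4 rose and 5 fell, against 26.8% and 32.5%. With (2S,6S)-HNK, 4 rose and 5 fell, against 32.1% and 35.8%. With (2R,6R)-HNK, 3 rose and 6 fell, against 31.7% and 34.9%. So many genes were called that a call alone sets no chain apart. The share of all genes with every treated library above or below vehicle was not computed, so such separation sets no chain apart either. With E2+ketamine, 2 rose and 6 fell, against 34.3% and 37.4%. With E2+(2R,6R)-HNK, 4 rose and 5 fell, against 33.4% and 36.3%. With E2+(2S,6S)-HNK, 3 rose and 4 fell, against 24% and 35.7%.

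Falls of at least 2-fold were rare over all genes. The share was 0.644% with E2, 0.981% with ketamine, 3.84% with (2S,6S)-HNK, 1.92% with (2R,6R)-HNK, 6.56% with E2+ketamine, 5.41% with E2+(2R,6R)-HNK and 1.67% with E2+(2S,6S)-HNK. IL7R fell this far in 6 treatments, all but E2+(2S,6S)-HNK, and LIFR did so with E2+ketamine. No chain rose 2-fold. In a test of any difference among the 8 groups, 9 of the 10 chains were called, all but IL6R (adjusted p = 0.083, edgeR quasi-likelihood), as were 82.1% of all genes.

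**Figure D2:**
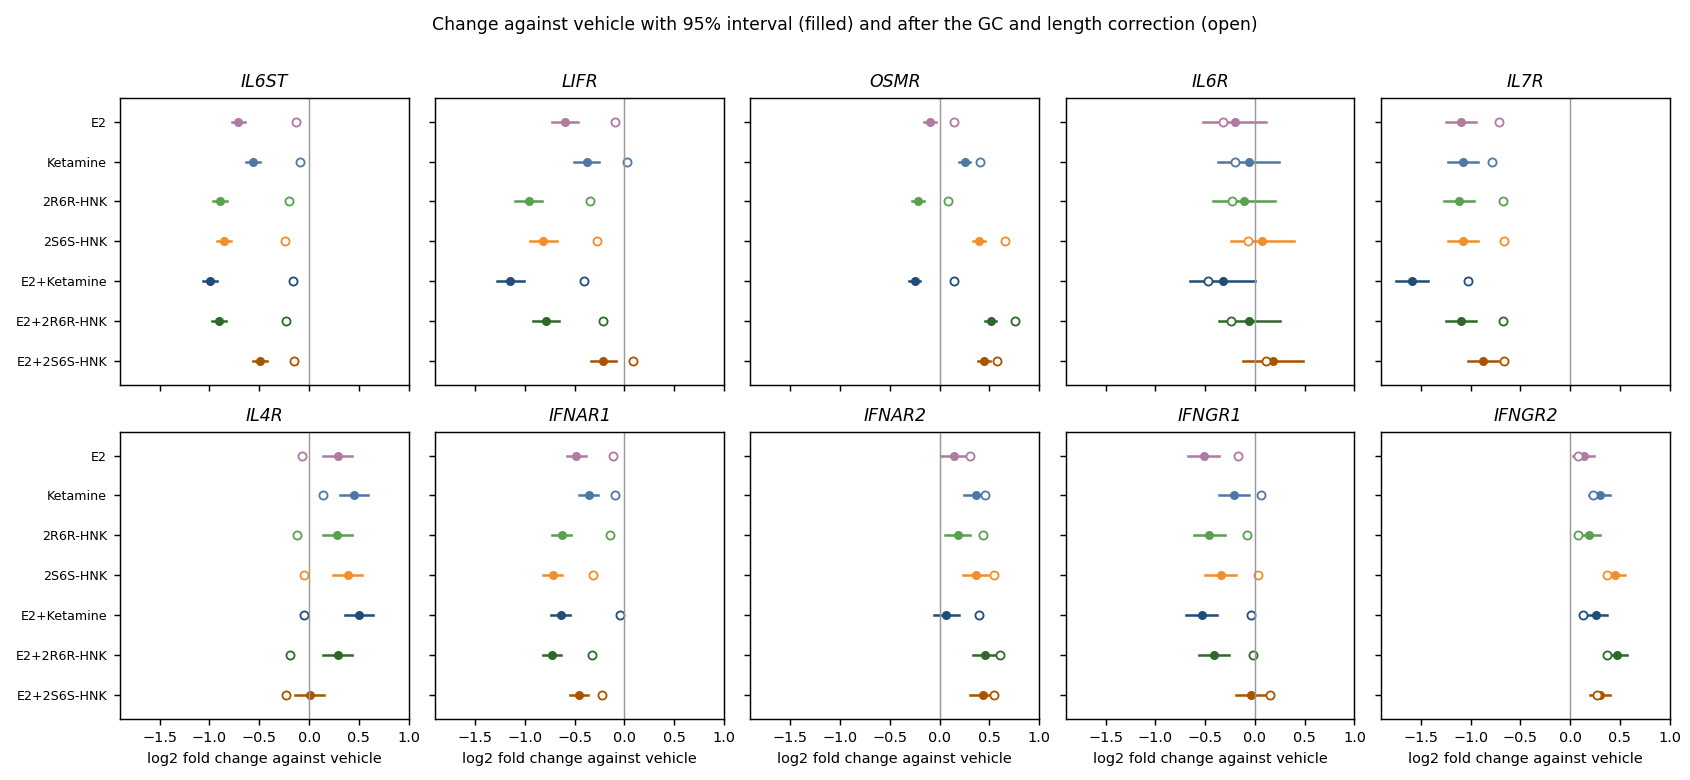
Log2 fold change of each chain against vehicle in the 7 treatments (filled points, with 95% intervals) and the same value after the correction for exon GC content and length (open points). IL7R stayed at -0.67 or lower after correction, while the falls of IL6ST, LIFR and IFNAR1 shrank and IL4R no longer rose.

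IL6ST encodes the chain that carries the signal of most of the interleukin 6 family. It lies on chr5:55230923-55290850 (GRCh37, minus strand), and its exons have the lowest GC content of the 10 chains, 36.3%. It stood at 136 and 139 CPM in the vehicle libraries, 84.7 and 82.9 with E2, 92.4 and 92.9 with ketamine, 73.3 and 74.3 with (2R,6R)-HNK and 77.4 and 73.9 with (2S,6S)-HNK. With E2 it stood at 69 and 68.4 for ketamine, 74.6 and 71.7 for (2R,6R)-HNK and 96.2 and 98.4 for (2S,6S)-HNK. All 14 treated libraries were below both vehicle libraries, and E2+ketamine was lowest. The log2 fold change ran from -0.49 (SE 0.034, adjusted p = 6.72e-18, edgeR) with E2+(2S,6S)-HNK to -0.995 (SE 0.035, adjusted p = 8.03e-30) with E2+ketamine. After the correction it was between -0.24 and -0.09 and still called in all 7 treatments.

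LIFR, the chain that pairs with IL6ST to receive leukemia inhibitory factor, followed a like course. It lies on chr5:38474770-38608456 (GRCh37, minus strand), with 38.4% exon GC. The vehicle libraries held 25.9 and 26.7 CPM, E2 17.8 and 17, ketamine 20 and 20.5, (2R,6R)-HNK 13.1 and 13.9, and (2S,6S)-HNK 14.7 and 15.1. With E2 added the values were 11.5 and 12.2 for ketamine, 14.5 and 15.9 for (2R,6R)-HNK and 23.4 and 21.9 for (2S,6S)-HNK. Every treated library was below vehicle, and E2+(2S,6S)-HNK came closest to it. The fall was largest with E2+ketamine (log2 fold change -1.15, SE 0.069, adjusted p = 1e-20, edgeR) and smallest with E2+(2S,6S)-HNK (-0.21, SE 0.063, adjusted p = 0.00318). The smallest fall lost its call without E2+(2S,6S)-HNK replicate 2 (-0.17, adjusted p = 0.0576) and under upper-quartile normalization (-0.11, adjusted p = 0.142). After the correction LIFR was called in 4 treatments, all lower, with values from -0.40 to 0.09. LIFR shares 629 exonic bases with LIFR-AS1 on the opposite strand, and whether counting used strand is not given in the sources used here.

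OSMR encodes the chain that pairs with IL6ST to receive oncostatin M, and unlike IL6ST and LIFR it did not move in 1 direction. It lies on chr5:38845960-38945698 (GRCh37, plus strand), 237.5 kb from LIFR, with 44.5% exon GC. Vehicle held 144 and 149 CPM, and the groups below it were E2 with 137 in both libraries, (2R,6R)-HNK with 126 in both and E2+ketamine with 123 in both. The groups above it were ketamine with 173 and 176, (2S,6S)-HNK with 192 and 193, E2+(2S,6S)-HNK with 196 and 203 and E2+(2R,6R)-HNK with 209 in both. All 8 groups could be put in order, since in each of the 7 steps the libraries of neighbouring groups lay apart. The share of all genes that can be ordered in this way was not computed. The rise was largest with E2+(2R,6R)-HNK (log2 fold change 0.51, SE 0.028, adjusted p = 8.03e-22, edgeR). The fall was largest with E2+ketamine (-0.25, SE 0.029, adjusted p = 8.89e-11). The fall with E2 was smaller (-0.10, SE 0.029, adjusted p = 0.004) and lost its call without vehicle replicate 2 (-0.07, adjusted p = 0.11) and under upper-quartile normalization (-0.031, adjusted p = 0.375). The sign of the 3 falls depended on the correction. After the correction OSMR was higher than vehicle in all 7 treatments, by 0.09 to 0.76, with (2R,6R)-HNK and E2 among the smallest. OSMR shares 229 exonic bases with RICTOR on the opposite strand.

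IL6R, the chain that binds interleukin 6 itself, was the scarcest member, with 142 to 276 counts in a library. It lies on chr1:154377669-154441926 (GRCh37, plus strand), with 51.3% exon GC. The vehicle libraries held 3.17 and 3.12 CPM, and the treated groups had means from 2.51 (E2+ketamine) to 3.57 (E2+(2S,6S)-HNK). Its libraries overlapped between neighbouring groups in 6 of 7 steps, and no change from vehicle was called. The intervals were wide, for example -0.52 to 0.11 for E2 on the log2 scale. After the correction IL6R was lower with E2+ketamine (-0.47, adjusted p = 0.0103, edgeR).

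IL7R and IL4R signal with other partners. IL7R encodes the chain that receives interleukin 7 and, with CRLF2, thymic stromal lymphopoietin, and it is best known from lymphocytes. It lies on chr5:35852797-35879705 (GRCh37, plus strand), with 41.6% exon GC. The vehicle libraries held 26.4 and 25.7 CPM, E2 11.4 and 13, ketamine 12.9 and 11.8, (2R,6R)-HNK 12.5 and 11.5, and (2S,6S)-HNK 12 and 12.7. With E2 added the values were 8.19 and 9.07 for ketamine, 12.9 and 11.5 for (2R,6R)-HNK and 14.4 and 13.9 for (2S,6S)-HNK. All 14 treated libraries were far below vehicle, E2+ketamine was lowest, and 5 treatments overlapped each other at about 12 CPM.

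The log2 fold change of IL7R was -1.10 with E2 (SE 0.076, adjusted p = 1.03e-17, edgeR), -1.08 with either ketamine or (2S,6S)-HNK and -1.12 with (2R,6R)-HNK. It was -1.59 with E2+ketamine (SE 0.080, adjusted p = 1.1e-23), -1.09 with E2+(2R,6R)-HNK and -0.88 with E2+(2S,6S)-HNK. This was the largest fall of the 10 chains in all 7 treatments. It also kept the most after the correction, with values between -1.03 and -0.67 and a call in all 7 treatments, though only E2+ketamine was then beyond 2-fold. The genes for the chains that IL7R pairs with, IL2RG and CRLF2, had at most 4 counts in any library. The ligand genes IL7 and TSLP had at most 2 and 26. Only uniquely mapped pairs were counted, so low counts alone do not show that a gene was silent. Lymphocyte markers summed to 0.822 to 0.964 CPM in vehicle and 1.04 to 2.4 in treated libraries, and CD3D was at 0 in all 16.

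IL4R, the chain shared by interleukin 4 and interleukin 13, was higher in treated cells. It lies on chr16:27324989-27376099 (GRCh37, plus strand), and its exons have the highest GC content of the 10 chains, 58.4%. The vehicle libraries both held 14.4 CPM, and 13 of the 14 treated libraries were above them, up to 22.1 in 1 of the E2+ketamine libraries. The log2 fold change ran from 0.28 with (2R,6R)-HNK (SE 0.072, adjusted p = 0.000493, edgeR) to 0.50 with E2+ketamine (SE 0.072, adjusted p = 1.93e-08) in the 6 called treatments. With E2+(2S,6S)-HNK, at 14.9 and 14.1 CPM, it was 0.01 (95% interval -0.14 to 0.16). After the correction no rise was called, the values were -0.23 to 0.14, and IL4R was lower with both HNK compounds beside E2.

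The type I interferon receptor is a pair of chains, and the chains moved in opposite directions. IFNAR1 (chr21:34696692-34732170, GRCh37, plus strand, 41.6% exon GC) held 56.7 and 57.4 CPM in vehicle, 41.3 and 40.2 with E2, 44.9 and 44 with ketamine, 36.2 and 37.6 with (2R,6R)-HNK and 35.1 and 34.1 with (2S,6S)-HNK. With E2 added it held 35.3 and 38 for ketamine, 33.4 and 35.6 for (2R,6R)-HNK and 41.5 and 41.8 for (2S,6S)-HNK. All 14 treated libraries were below vehicle. The log2 fold change ran from -0.36 with ketamine (SE 0.045, adjusted p = 1.5e-09, edgeR) to -0.73 with E2+(2R,6R)-HNK (SE 0.047, adjusted p = 2.32e-19). After the correction 5 of the 7 falls were called, and the values were -0.33 to -0.04.

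IFNAR2, the chain that binds interferon more tightly and carries STAT2 on its tail, lies 58.7 kb from IFNAR1 at chr21:34577587-34637980 (GRCh37, plus strand), with 45.6% exon GC. It held 18 and 17.8 CPM in vehicle, 20.3 and 19.1 with E2, 23.4 and 22.7 with ketamine, 20.8 and 19.7 with (2R,6R)-HNK and 23.3 and 22.7 with (2S,6S)-HNK. With E2 added it held 19.2 and 18.4 for ketamine, 24.8 and 24.3 for (2R,6R)-HNK and 23.5 and 24.9 for (2S,6S)-HNK. All 14 treated libraries were above vehicle. The rise was largest with E2+(2R,6R)-HNK (log2 fold change 0.46, SE 0.061, adjusted p = 3.65e-09, edgeR). It was not called with E2 (0.14, adjusted p = 0.0501) or with E2+ketamine (0.07, adjusted p = 0.34). The E2 value was at the threshold and was called without E2 replicate 2 (0.18, adjusted p = 0.0359) and under upper-quartile normalization (0.20, adjusted p = 0.00432). The rise with (2R,6R)-HNK (0.18, adjusted p = 0.00907) lost its call without (2R,6R)-HNK replicate 1 (0.14, adjusted p = 0.116) and without vehicle replicate 2 (0.17, adjusted p = 0.0522). After the correction IFNAR2 rose in all 7 treatments, by 0.31 to 0.61. IFNAR2 shares 2038 exonic bases on the same strand with the readthrough gene IFNAR2-IL10RB. IL10RB, the neighbour between IFNAR2 and IFNAR1 and a shared chain of the interleukin 10 and interferon lambda receptors, also rose in all 7 treatments, by 0.14 to 0.35 (0.25 to 0.57 after the correction).

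The interferon gamma receptor showed the same kind of split before the correction. IFNGR1, its ligand-binding chain, lies on chr6:137518620-137540586 (GRCh37, minus strand, 42.5% exon GC) and held 15.1 and 14.5 CPM in vehicle, 10.2 and 10.5 with E2, 12.7 and 13 with ketamine, 11.1 and 10.4 with (2R,6R)-HNK and 11.5 and 11.8 with (2S,6S)-HNK. With E2 added it held 10.8 and 9.64 for ketamine, 11.6 and 10.7 for (2R,6R)-HNK and 14.6 and 14.2 for (2S,6S)-HNK. The E2+(2S,6S)-HNK libraries overlapped vehicle and the other 12 were below it. The called falls ran from -0.21 with ketamine (SE 0.075, adjusted p = 0.0155, edgeR) to -0.54 with E2+ketamine (SE 0.079, adjusted p = 3.93e-08). The fall with ketamine lost its call without ketamine replicate 1 (-0.19, adjusted p = 0.0898), without vehicle replicate 1 (-0.17, adjusted p = 0.119), under upper-quartile normalization (-0.12, adjusted p = 0.162) and in DESeq2 (-0.18, adjusted p = 0.0788). No fall of IFNGR1 was called after the correction, where the values were -0.17 to 0.15.

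IFNGR2, the accessory chain that brings JAK2 to the interferon gamma receptor, lies on chr21:34775719-34851655 (GRCh37, plus strand), 43.5 kb beyond IFNAR1, with 50.8% exon GC. It held 27.9 and 30.2 CPM in vehicle, 32.2 and 31.7 with E2, 36.3 and 35.1 with ketamine, 34.5 and 31.7 with (2R,6R)-HNK and 40.3 and 38.8 with (2S,6S)-HNK. With E2 added it held 35.4 and 34.1 for ketamine, 40.3 and 40 for (2R,6R)-HNK and 36.2 and 35.2 for (2S,6S)-HNK. All 14 treated libraries were above vehicle. The log2 fold change ran from 0.14 with E2 (SE 0.053, adjusted p = 0.0222, edgeR) to 0.47 with E2+(2R,6R)-HNK (SE 0.052, adjusted p = 2.26e-11). The smallest rises rested on single libraries. The rise with E2 lost its call without E2 replicate 1 (0.12, adjusted p = 0.11) and without vehicle replicate 1 (0.08, adjusted p = 0.315). The rise with (2R,6R)-HNK (0.19, adjusted p = 0.00126) lost its call without (2R,6R)-HNK replicate 1 (0.12, adjusted p = 0.094) and without vehicle replicate 1 (0.13, adjusted p = 0.0686). After the correction 5 rises were called, from 0.13 to 0.37 on the log2 scale. IFNGR2 shares 380 exonic bases with TMEM50B on the opposite strand.

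A ratio of a pair of chains within a library does not depend on how libraries are scaled, so the balance of chains that work together was followed in that way. IFNAR2 made up more of the type I interferon receptor messages in every treated library. The log2 ratio of IFNAR2 to IFNAR1 counts was -1.66 and -1.69 in vehicle and -1.08 to -0.43 in the 14 treated libraries. Across groups it was 0.62 to 1.18 higher than in vehicle, and 0.42 to 0.94 higher after the correction. The SD of the libraries of a group was at most 0.117. Untransformed, vehicle cells had 0.314 IFNAR2 counts for each IFNAR1 count and E2+(2R,6R)-HNK cells had 0.712.

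The same ratio for IFNGR2 over IFNGR1 was 0.88 and 1.06 in vehicle and 1.31 to 1.91 in treated libraries, again with no overlap. Across groups it was 0.34 to 0.88 higher than in vehicle, and 0.12 to 0.39 higher after the correction. Among the partners of IL6ST, the ratio of OSMR to LIFR was 2.47 and 2.49 in vehicle and 2.95 to 3.85 in treated libraries. It was 0.50 to 1.30 higher across groups, and 0.24 to 0.97 higher after the correction. Untransformed, OSMR counts were 5.58 times LIFR counts in vehicle and 13.8 times in E2+(2R,6R)-HNK cells. The ratio of LIFR to IL6ST moved less and in both directions, with 9 of 14 treated libraries above vehicle. These ratios were described without a test, since each chain's own change has one. How often other pairs of genes separate from vehicle in this way was not computed.

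**Figure D3:**
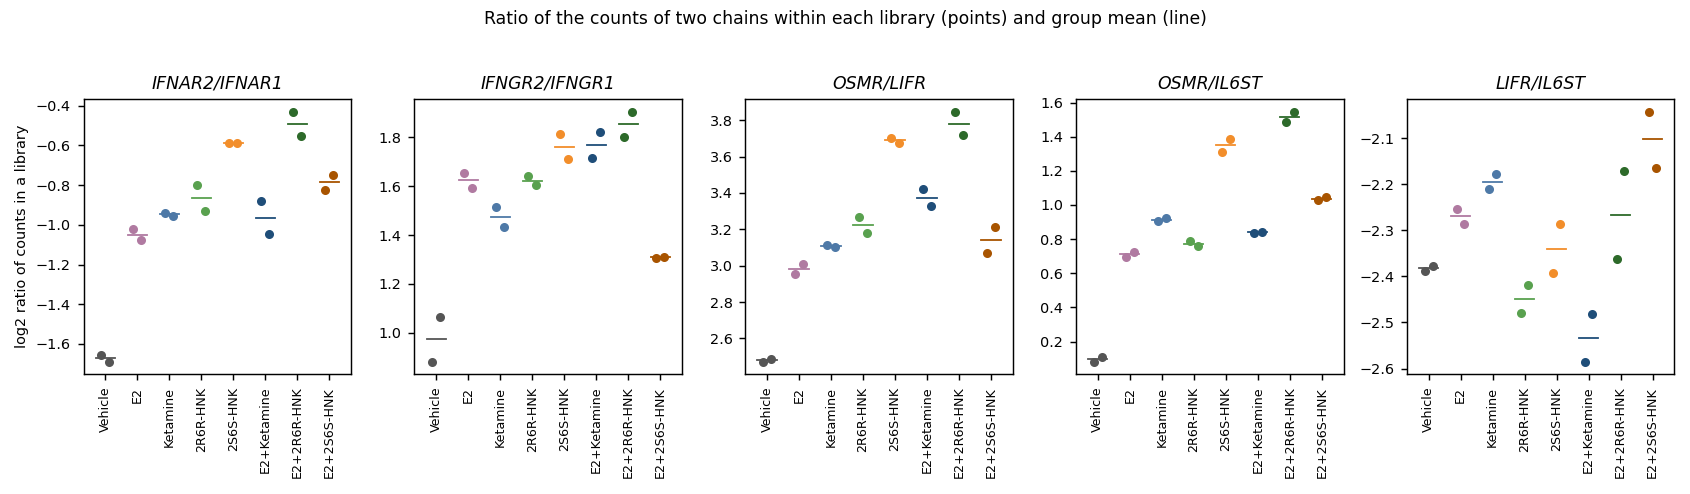
Log2 ratio of the counts of 2 chains within each library (points) with the group mean (line), for 5 pairs of chains that share a receptor or a partner. For IFNAR2/IFNAR1, IFNGR2/IFNGR1, OSMR/LIFR and OSMR/IL6ST all 14 treated libraries lay above vehicle, and for LIFR/IL6ST 9 did. How often other pairs of genes do so was not computed.

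The next question was whether ketamine and the mirror-image HNK compounds, at the same dose and time, differed in their effect on the chains. In all, 6 pairs of drugs were compared, 3 alone and 3 with E2, and the p-values of single chains below come from edgeR's quasi-likelihood test and are adjusted over all genes of the 6 pairs together. In the absence of E2, (2S,6S)-HNK and (2R,6R)-HNK differed in 3 chains, where 43.5% of all genes differed, and all 3 were higher with (2S,6S)-HNK. OSMR stood out, at 192 and 193 CPM against 126 in both (2R,6R)-HNK libraries (log2 difference 0.61, SE 0.029, adjusted p = 8.51e-24, and 0.57 after the correction). The others were IFNGR2 (0.25, SE 0.051, adjusted p = 3.76e-05, and 0.29 after the correction) and IFNAR2 (0.18, SE 0.061, adjusted p = 0.0103), and the latter was not called after the correction (0.11). After the correction IFNAR1 was called lower with (2S,6S)-HNK (-0.18). The IFNAR2 difference also lost its call without (2R,6R)-HNK replicate 2 (0.15) and without (2S,6S)-HNK replicate 1 (0.16). For IL7R the mirror images could not be told apart, with a difference of 0.04 (95% interval -0.12 to 0.21), nor for IL6ST (0.04, -0.04 to 0.11).

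Compared with ketamine, (2R,6R)-HNK gave lower levels in 7 chains, where 45.4% of all genes differed. The largest of these were LIFR (log2 difference -0.58, SE 0.066, adjusted p = 1.22e-10), OSMR (-0.47, SE 0.029, adjusted p = 1.6e-19) and IL6ST (-0.33, SE 0.035, adjusted p = 1.53e-11). IFNAR1, IFNGR1, IFNAR2 and IL4R were lower by 0.17 to 0.27. Of these, IL4R lost its call without (2R,6R)-HNK replicate 1 (-0.11), without either ketamine library (-0.17 and -0.16) and in DESeq2 (-0.16). IFNAR2 lost its call without (2R,6R)-HNK replicate 2 (-0.15) or ketamine replicate 1 (-0.16), and IFNGR1 without (2R,6R)-HNK replicate 2 (-0.21). After the correction LIFR (-0.37), OSMR (-0.32), IL6ST (-0.11) and IL4R (-0.26) were still called lower, whereas IFNAR1 (-0.049), IFNAR2 (-0.013) and IFNGR1 (-0.14) were not, and IFNGR2 (-0.15) was called. (2S,6S)-HNK differed from ketamine in 5 chains, where 46.1% of all genes differed. It gave lower LIFR (-0.44, SE 0.067, adjusted p = 1.96e-07), IFNAR1 (-0.36, SE 0.048, adjusted p = 6.39e-09) and IL6ST (-0.29, SE 0.035, adjusted p = 5.44e-10), and slightly higher OSMR (0.14) and IFNGR2 (0.15). The IFNGR2 difference lost its call without (2S,6S)-HNK replicate 1 (0.12) or ketamine replicate 2 (0.12). All 5 were called in the same direction after the correction, LIFR at -0.30, IFNAR1 at -0.23, IL6ST at -0.15, OSMR at 0.25 and IFNGR2 at 0.14, and IL4R was then also lower (-0.18). IL7R was alike after ketamine and (2S,6S)-HNK to within the interval (-0.16 to 0.16).

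With E2 present the order of the drugs changed. (2S,6S)-HNK gave the higher level in 8 chains relative to ketamine and a lower level in IL4R, so 9 of 10 differed, where 66.8% of all genes did. LIFR (log2 difference 0.93, SE 0.068, adjusted p = 1.14e-16), IL7R (0.71, SE 0.083, adjusted p = 2.34e-10) and OSMR (0.70, SE 0.029, adjusted p = 4.17e-26) differed most. IL6R, called in no comparison with vehicle, was higher by 0.51 here (SE 0.156, adjusted p = 0.00528), at 3.39 and 3.76 CPM against 2.6 and 2.42. IFNAR1 was 0.19 higher but turned to -0.18 after the correction, where both values were called, and IL6ST (0.50) was no longer called (0.01). The corrected differences of LIFR, IL7R, OSMR and IL6R were 0.49, 0.36, 0.44 and 0.58, all called, and IFNGR2 was then also higher (0.14).

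(2R,6R)-HNK with E2 differed from ketamine with E2 in 7 chains, where 52% of all genes did, and 6 of them were higher. OSMR differed most, at 209 CPM in both libraries against 123 in both (log2 difference 0.77, SE 0.029, adjusted p = 9.79e-28, and 0.61 after the correction), followed by IL7R (0.50, SE 0.084, adjusted p = 1.4e-06) and IFNAR2 (0.39, SE 0.061, adjusted p = 3.34e-07). IL6ST was higher by 0.09, which lost its call in DESeq2 (0.07) and when only the groups compared were fitted (0.076). It also lost its call without either E2+ketamine library (0.10 and 0.08) and without E2+(2R,6R)-HNK replicate 1 (0.06). IL4R was lower by 0.21, which lost its call without E2+ketamine replicate 2 (-0.09) and without E2+(2R,6R)-HNK replicate 2 (-0.18). Neither was called after the correction, where IL6ST was -0.065 and IL4R -0.14, while IL7R (0.35) and IFNAR2 (0.21) were, and IFNAR1 was called lower (-0.28).

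The mirror images with E2 differed in 8 chains, where 54% of all genes did. LIFR, IL6ST, IFNGR1, IFNAR1 and IL7R were higher with E2+(2S,6S)-HNK, by 0.58, 0.41, 0.38, 0.27 and 0.21. IL4R, IFNGR2 and OSMR were lower, by 0.28, 0.17 and 0.07. OSMR, which had separated these compounds in the absence of E2, was thus at 196 and 203 CPM against 209 in both libraries. That small difference lost its call under upper-quartile normalization, with no filter on low counts (-0.067) and when only the groups compared were fitted (-0.038). It also lost its call without E2+(2R,6R)-HNK replicate 1 (-0.07), replicate 2 (-0.07) or E2+(2S,6S)-HNK replicate 1 (-0.04). The IL7R difference lost its call in DESeq2 (0.20) and without E2+(2R,6R)-HNK replicate 2 (0.14) or E2+(2S,6S)-HNK replicate 1 (0.18). After the correction 3 of the 8 differences were called, LIFR (0.30), IL6ST (0.08) and OSMR (-0.18).

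**Figure D4:**
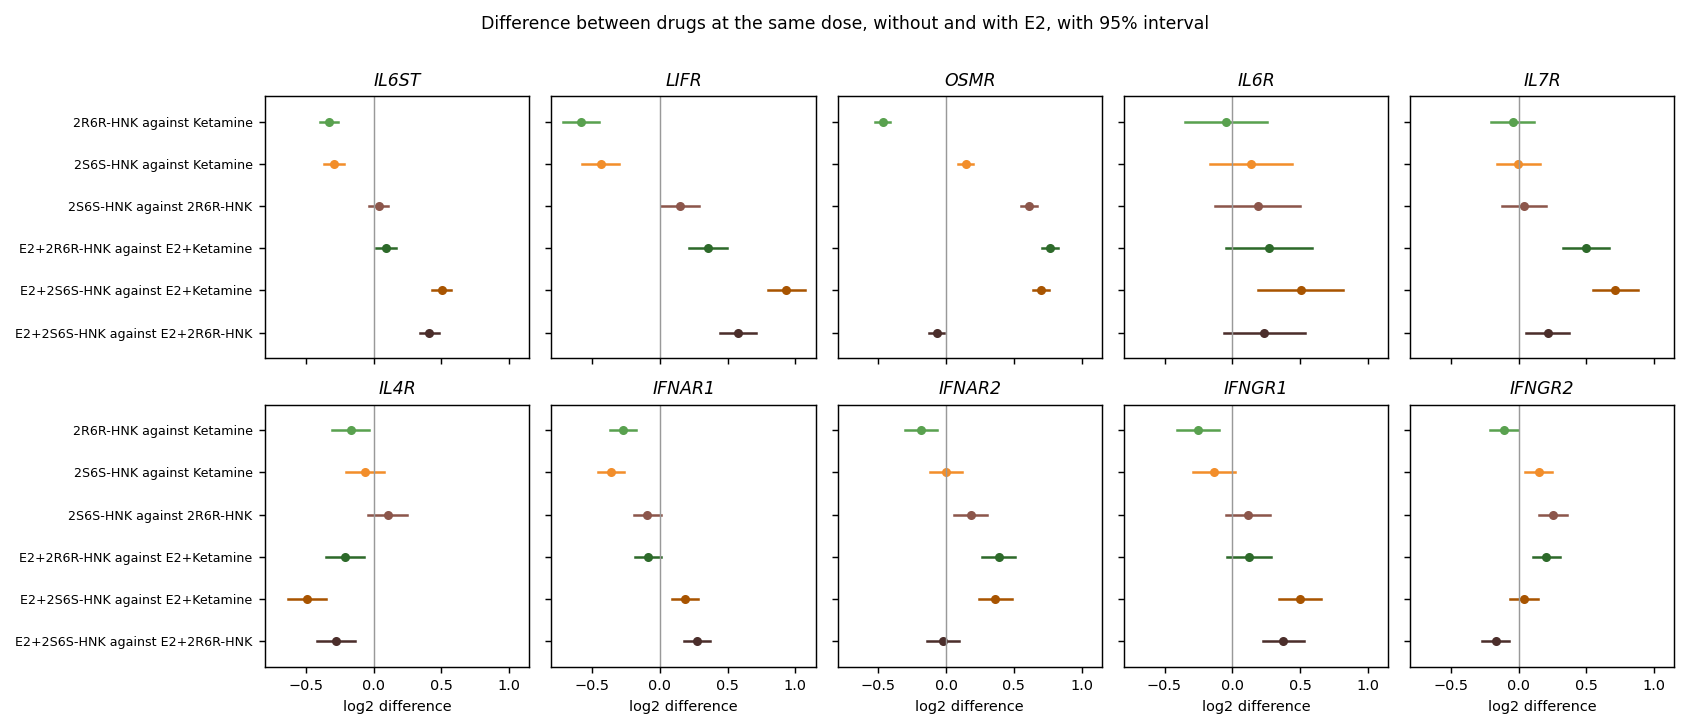
Log2 difference of each chain between 2 drugs at 400 nM, for the 3 pairs alone and the 3 pairs with E2 (points, with 95% intervals). Before the correction OSMR differed by 0.61 between (2S,6S)-HNK and (2R,6R)-HNK alone and by -0.07 with E2. LIFR and IL6ST differed little alone and by 0.58 and 0.41 with E2. After the correction, which is not drawn, OSMR differed by 0.57 alone and by -0.18 with E2. LIFR and IL6ST then differed by 0.30 and 0.08 with E2.

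The design also asked whether E2 altered the effect of each drug, which was tested as an interaction, the drug's effect beside E2 less its effect when given alone. For ketamine, 5 chains were called, where 37.5% of all genes were. For (2R,6R)-HNK 7 were called against 56.6%, and for (2S,6S)-HNK 8 against 65.1%. A positive value for a chain that fell means that drug and E2 together lowered it less than the sum of their separate falls. IL7R, IL6ST and IFNAR1 were positive with all 3 drugs, and LIFR and IFNGR1 with both HNK compounds. All 3 interactions share the vehicle and E2 libraries, so a sign seen with all 3 drugs is not 3 separate observations. LIFR with ketamine was negative (-0.17), not called before the correction and called after it (-0.33) and under upper-quartile normalization (-0.26). IL4R (-0.24, adjusted p = 0.055) and IFNGR2 (-0.17, adjusted p = 0.0562) with ketamine were near the threshold and were called under upper-quartile normalization (-0.32 and -0.26) and with halved counts. After the correction the interactions of IFNAR1 (-0.076) and IFNGR1 (0.22) with (2R,6R)-HNK were no longer called, while those of LIFR with (2R,6R)-HNK (0.23) and of LIFR (0.46), IFNAR1 (0.20) and IFNGR1 (0.29) with (2S,6S)-HNK were. IFNAR1 with ketamine was 0.16 after the correction, still called, and lost its call under upper-quartile normalization (0.12). For IL7R the interaction was 0.58 (SE 0.113, adjusted p = 3.66e-05, edgeR) with ketamine, 1.12 (SE 0.110, adjusted p = 1.41e-12) with (2R,6R)-HNK and 1.30 (SE 0.110, adjusted p = 6.94e-15) with (2S,6S)-HNK. After the correction it was 0.48, 0.71 and 0.72, all called.

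OSMR had interactions of opposite sign. It was -0.41 with ketamine (SE 0.041, adjusted p = 1.36e-11, edgeR; -0.40 after the correction), since ketamine raised OSMR alone and not beside E2. With (2R,6R)-HNK it was 0.82 (SE 0.041, adjusted p = 6.89e-23, and 0.53 after the correction), since (2R,6R)-HNK lowered OSMR from 146 to 126 CPM alone and raised it from 137 to 209 beside E2. After the correction (2R,6R)-HNK alone raised OSMR slightly (0.086). With (2S,6S)-HNK it was 0.14, which turned to -0.22 after the correction. For IL6ST the 3 interactions were 0.28, 0.70 and 1.07, and after the correction only that of (2S,6S)-HNK was called (0.22). The interaction of IFNAR2 with ketamine was -0.44 (SE 0.087, adjusted p = 5.34e-05, and -0.36 after the correction), and that with (2S,6S)-HNK was called only after the correction (-0.31).

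**Figure D5:**
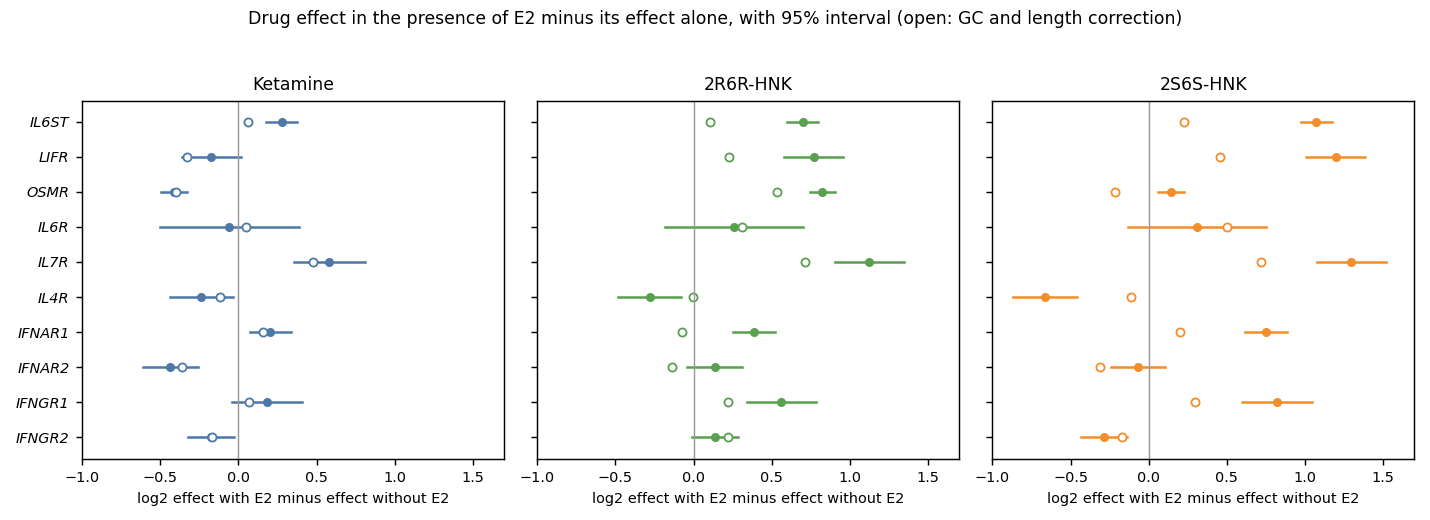
Interaction of each drug with E2 for the 10 chains on the log2 scale, with 95% intervals (filled) and after the correction for exon GC content and length (open). IL7R lay above 0 with all 3 drugs both ways, and OSMR lay at -0.41 with ketamine and 0.82 with (2R,6R)-HNK.

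Genes that work with these receptors were described from lists chosen by their known role. Of 19 ligand genes, 6 were tested, and 4 interferon genes (IFNA1, IFNK, IFNW1 and IFNG) were at 0 in all libraries. IFNB1 had at most 1 count in a library and OSM, the ligand of OSMR, at most 4. The tested ligands other than TSLP were of the interleukin 6 family. IL11 averaged 66.7 CPM, LIF 64, CLCF1 26.1 and CTF1 8.26, whereas IL6 averaged 0.817. LIF, the ligand of LIFR, rose most with E2 (0.72), (2R,6R)-HNK (0.74) and E2+ketamine (0.78), the treatments in which OSMR fell before correction, rose less with ketamine (0.28), and fell with E2+(2S,6S)-HNK (-0.31). After the correction these were 0.41, 0.36, 0.27, 0.00 and -0.52. With (2S,6S)-HNK and E2+(2R,6R)-HNK LIF was 0.042 and -0.016 before the correction, neither called, and -0.35 and -0.44 after it. IL11, which also signals through IL6ST, rose with E2 (0.23), ketamine (0.25) and E2+ketamine (0.15) and fell with (2S,6S)-HNK (-0.53), E2+(2R,6R)-HNK (-0.69) and E2+(2S,6S)-HNK (-0.71). After the correction its 3 rises were -0.085, -0.020 and -0.38 and its 3 falls -0.91, -1.10 and -0.91. With (2R,6R)-HNK IL11 was 0.076 before the correction, not called, and -0.33 after it.

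The counts in the lists that follow are to be read against all genes tested, of which 24% to 34.3% rose and 32.5% to 37.4% fell in a treatment. These shares are before the correction, and the counts after it have no matching share here. Of 34 other cytokine receptor chains, 22 were tested. Between 7 and 11 rose and 2 to 5 fell in a treatment, or 3 to 11 and 1 to 5 after the correction, and the median log2 fold change was 0.21 to 0.64 beside -0.06 to 0.00 for all genes. IL11RA, the chain that binds interleukin 11, rose in all 7 treatments by 0.51 to 0.89, and by 0.31 to 0.56 after the correction. IL27RA, the chain that pairs with IL6ST to receive interleukin 27, rose in all 7, by 0.37 to 1.18, with 0.048 to 0.76 after the correction. IL13RA1, which pairs with IL4R, fell in 5 treatments, by -0.18 to -0.76, and after the correction 2 of these were above 0, (2S,6S)-HNK (0.13) and E2+(2R,6R)-HNK (0.13). LEPR, the leptin receptor, ran from -1.18 with E2+ketamine to 0.69 with E2+(2S,6S)-HNK, and from -0.34 to 1.03 in the same treatments after the correction. IFNLR1, the interferon lambda chain that pairs with IL10RB, rose in all 7 treatments by 0.43 to 1.04, with 0.19 to 0.72 after the correction.

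All 11 Janus kinases and STAT factors of the list were tested, and in each of 6 treatments 7 rose and 3 fell. With E2+(2S,6S)-HNK 6 rose and 1 fell. After the correction 6 or 7 rose and 1 to 3 fell. JAK1, bound by IL6ST, IL7R, IL4R, IFNAR2 and IFNGR1, fell in all 7 treatments by -0.32 to -0.73, and by -0.34 to -0.60 after the correction. STAT2, the factor tied to IFNAR2, rose in all 7 by 0.48 to 0.94, and by 0.38 to 0.82 after the correction. STAT5A, a main target of IL7R, rose in all 7 by 0.65 to 1.24, with 0.35 to 0.79 after the correction. Of 17 inhibitors of receptor signaling, 4 to 6 rose and 7 to 9 fell in a treatment, or 1 to 3 and 5 to 8 after the correction. Their summed level was 924 to 929 CPM in vehicle and 697 to 779 in treated libraries, and PTPN11 made up 321 CPM of it in vehicle. PTPN11, a phosphatase bound by IL6ST, fell in all 7 by -0.72 to -1.23, and by -0.56 to -0.78 after the correction. USP18, which binds IFNAR2 and damps its signal, rose in all 7 by 0.29 to 1.06, with 0.39 to 1.30 after the correction. Of 13 genes for shedding and turnover of receptor chains, 4 to 6 rose and 5 to 7 fell, or 4 to 7 and 3 to 5 after the correction. ADAM10, a protease that sheds receptor chains from the cell surface, fell in all 7 treatments by -0.69 to -1.22, and by -0.19 to -0.45 after the correction.

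Among the 10374 genes with a mean of at least 5 CPM, the pattern of each chain over the 16 libraries was compared with all others by Pearson's r of log2 CPM, as a description of points that share groups and library composition. Among the genes most like IL7R were TPX2 (r = 0.980) and MPHOSPH9 (0.975). Among those most like OSMR were DDX17 (0.982) and C20orf194 (0.981). IFNAR1 was most like DENR (0.982), IL6ST most like SP3 (0.993) and IFNAR2 most like PPARA (0.956). The exons of SP3 and DENR have 37.7% and 39.6% GC, and those of PPARA 47.9%. Next nearest to IL6ST were SMS (0.992, with 51.6% GC) and MRPL19 (0.992, with 37.9%). For IFNAR2 they were PPFIA4 (0.948, with 58.4%) and PAQR8 (0.943, with 45.7%), and for IFNAR1 ZBTB38 (0.980, with 41.5%) and RBL1 (0.980, with 40.1%). By Spearman's rho, none of the genes named here for IL7R or OSMR were among the 3 nearest to them. Among the chains themselves, IL6ST went with IFNAR1 (0.948) and LIFR (0.931), and OSMR with IFNAR2 (0.866).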

How the data were processed

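RNA-seq of 16 HMC3 libraries was used. The authors prepared amplified cDNA libraries (Ovation kit), sequenced 8 to a lane as paired reads, and aligned them to hg19; the submitters' processing notes name TopHat2 2.0.14, Bowtie2 2.2.6 and featureCounts 1.4.6. The deposited values are counts per gene without normalization, from uniquely mapped pairs. Strand use in counting is not given in the sources used here. Of counts of 1 to 9, 65.8% were even, against 49.9% of large counts, so results were also computed with counts halved.

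The main test was edgeR 4.0.16 (R 4.3.3), with TMM scaling and filterByExpr (16004 genes kept). One quasi-likelihood fit with 8 group means (8 residual degrees of freedom) gave every comparison. Benjamini-Hochberg adjustment ran over the genes of a comparison, and also over the 6 drug pairs together. Intervals are 95%. CPM values use TMM library sizes. A loess offset (span 0.5) on exon GC content and length (GENCODE gene models on GRCh37, matched for 95.9% of genes tested) gave the corrected values. Such an offset takes away real changes that run with GC content as well as technical ones.

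Alternatives were DESeq2 1.42.0 (the tool of the study), upper-quartile factors, other filters, a replicate block, the groups compared only, halved counts and each library left out. The study's methods do not name the groups in a fit. Scripts were tested on simulated counts. The members and lists were chosen with earlier results of these data known. All chains are named. From each list the 3 with the highest mean CPM, and up to 4 more with the largest 2-fold changes at a mean of at least 5 CPM, could be named, as could IL10RB. Ligands and partner chains with few counts were added after their values were seen. Some genes with patterns like those of IL7R and OSMR are not reported here.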

Additional observations from a re-analysis of the deposited data

Results flagged for a closer look

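In all, 20 differences between a drug's effect beside E2 and its effect alone were called by the interaction test (edgeR quasi-likelihood, adjusted over all genes), and each is given here because the same drug gave different changes in the 2 settings. Values are on the log2 scale, and positive means a more positive drug effect beside E2 than alone, not a higher level. With ketamine they were 0.58 for IL7R, 0.28 for IL6ST, 0.20 for IFNAR1, -0.41 for OSMR and -0.44 for IFNAR2. With (2R,6R)-HNK they were 1.12 for IL7R, 0.70 for IL6ST, 0.77 for LIFR, 0.82 for OSMR, 0.39 for IFNAR1, 0.56 for IFNGR1 and -0.28 for IL4R. With (2S,6S)-HNK they were 1.30 for IL7R, 1.07 for IL6ST, 1.20 for LIFR, 0.14 for OSMR, 0.75 for IFNAR1, 0.82 for IFNGR1, -0.67 for IL4R and -0.28 for IFNGR2.

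A pair of these rested on single libraries. IFNAR1 with ketamine lost its call without E2 replicate 2 (0.18), E2+ketamine replicate 2 (0.15) or ketamine replicate 2 (0.19), and under upper-quartile normalization (0.12). IL4R with (2R,6R)-HNK lost its call without (2R,6R)-HNK replicate 2 (-0.23), E2 replicate 2 (-0.23) or E2+(2R,6R)-HNK replicate 2 (-0.25). After the correction for GC content and length, the interactions called both ways numbered 4 with ketamine, 6 with (2S,6S)-HNK and 3 with (2R,6R)-HNK, counting only those of the same sign. The share of all genes called both ways was not computed. IL7R was called with all 3 drugs both ways, and OSMR with ketamine and (2R,6R)-HNK. IL4R was called with neither HNK compound after the correction, at -0.11 with (2S,6S)-HNK and -0.003 with (2R,6R)-HNK. The cause of the differences was not tested.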

How the results depend on the processing

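Of 59 calls against vehicle, the replicate block (a term for the replicate number in the titles, which did not pair the libraries, with correlations of -0.0258 to 0.0451), both other filters on low counts, the groups compared only and halved counts kept all 59 with their direction, DESeq2 kept 58, upper-quartile normalization 56 and leaving out 1 library 56 to 59. Over all 160 changes of single chains, the replicate block altered no call. Upper-quartile normalization shifted the median of all genes by up to 0.105 (E2+(2S,6S)-HNK), which bears on every chain near 0.

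The correction for GC content and length kept 37 of the 59 calls with their direction, ended 10 without a change of sign and turned the sign of 12. Called in the new direction were OSMR with E2, (2R,6R)-HNK and E2+ketamine and IL4R with E2+(2R,6R)-HNK. The rest of those 12 lost their call. Reversed below means a change of sign. Against vehicle, IL4R and IFNGR1 with E2+(2S,6S)-HNK and IL6R with (2S,6S)-HNK were not among the 59 calls. With the correction, alone or with the replicate block, 5 chains were called with E2 and 5 with ketamine against vehicle. Called between E2+(2S,6S)-HNK and E2+(2R,6R)-HNK were 3, and in the interaction of (2R,6R)-HNK 4. Chains at least 2-fold from vehicle then numbered 1 with E2+ketamine and 0 in the other 5 treatments that had one. Upper-quartile normalization also gave 0 for ketamine. No share of all genes called after the correction is given here, so the corrected counts have no background. Where a value under 0.1 in size differed with the replicate block, the blocked value stands second. Reversed against vehicle were OSMR with E2 (0.14), (2R,6R)-HNK (0.086) and E2+ketamine (0.14), IL4R with E2 (-0.067), (2R,6R)-HNK (-0.12), (2S,6S)-HNK (-0.048 and -0.049), E2+ketamine (-0.050 and -0.051), E2+(2R,6R)-HNK (-0.19) and E2+(2S,6S)-HNK (-0.23), LIFR with ketamine (0.022) and E2+(2S,6S)-HNK (0.089 and 0.090), IFNGR1 with ketamine (0.061 and 0.062), (2S,6S)-HNK (0.030 and 0.031) and E2+(2S,6S)-HNK (0.15), and IL6R with (2S,6S)-HNK (-0.072). Reversed between drugs were IL7R for (2R,6R)-HNK and (2S,6S)-HNK against ketamine (0.12 each), IFNAR2 for (2S,6S)-HNK against ketamine (0.093 and 0.094), IL6ST for (2S,6S)-HNK against (2R,6R)-HNK (-0.042) and, with E2, for (2R,6R)-HNK against ketamine (-0.065), and IFNAR1, with E2, for (2S,6S)-HNK against ketamine (-0.18). Reversed interactions were IL6R with ketamine (0.045), IFNAR1 (-0.076 and -0.077) and IFNAR2 (-0.14) with (2R,6R)-HNK and OSMR with (2S,6S)-HNK (-0.22). The cause was not tested.

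Other reversals were of values that were not called or were small. Upper-quartile normalization reversed IL6R with ketamine (0.020) and E2+(2R,6R)-HNK (0.025), IFNGR1 with E2+(2S,6S)-HNK (0.067) and IFNAR2 between the HNK compounds with E2 (0.00). Fitting only the groups compared reversed the last 2, to 0.035 and 0.007. Leaving out 1 library gave IL6R -0.25 to 0.032 with (2R,6R)-HNK, -0.22 to 0.091 with E2+(2R,6R)-HNK, -0.19 to 0.095 for (2R,6R)-HNK against ketamine and -0.23 to 0.135 for the interaction of ketamine. It gave IL4R -0.032 to 0.045 with E2+(2S,6S)-HNK, and IL7R -0.11 to 0.024 for (2R,6R)-HNK and -0.067 to 0.064 for (2S,6S)-HNK against ketamine and -0.015 to 0.105 between the HNK compounds. IFNAR2 ran from -0.027 to 0.018 for (2S,6S)-HNK against ketamine and from -0.065 to 0.020 between the HNK compounds with E2. Depth limited IL6R most, with 142 counts in its lowest library. With 1 library left in a group, the spread was taken from the other groups.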

Other observations

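Some receptor chains of the lists had many counts while a chain they are known to pair with had counts at or near 0. Only uniquely mapped pairs were counted, so counts near 0 do not show that a chain was missing. These genes were chosen after their values were seen. CSF2RB, the beta chain shared by the receptors of interleukin 3, interleukin 5 and GM-CSF, averaged 16 CPM with 667 to 1779 counts in a library, whereas the ligand-binding chains IL3RA, IL5RA and CSF2RA had at most 12, 5 and 10 counts. IL10RB averaged 33.1 CPM, whereas IL10RA had at most 4 counts, though IFNLR1, another partner of IL10RB, averaged 9.06 CPM.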
